A study of Mus musculus with 4 samples.

Results

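Fibroblast and meningeal nuclei of the mouse deep cerebellar nuclei were selected from single-nucleus RNA sequencing tables as those nuclei that carried counts of connective tissue genes. A nucleus was taken when at least 3 of 7 gating genes (Dcn, Lum, Col1a1, Col1a2, Col3a1, Slc6a13 and Ranbp3l) had a count and when that number exceeded the number of 5 mural genes (Rgs5, Kcnj8, Abcc9, Notch3 and Myh11) with a count. The rule selected 117 of 21494 nuclei. Because these 12 genes chose the nuclei, they were left out of every comparison and are given only as a description.

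The deep cerebellar nuclei are the output nuclei of the cerebellum, and nuclei were isolated from pieces of this tissue cut out of brain slices of C57BL/6J mice. The Ucn3-Cre libraries came from mice of 3 months with a transgene (Tg[Ucn3-cre]KF31Gsat/Mmucd) that places Cre recombinase under Ucn3 sequences, with replicate 1 from a Female and an iodixanol gradient and replicate 2 from a Male and a sucrose cushion. The vGluT2-Cre libraries came from mice with a transgene (Tg(Slc17a6-icre)1Oki) that places Cre under sequences of Slc17a6, the vGluT2 gene of glutamatergic neurons, both prepared over a sucrose cushion, with replicate 1 from a Male of 2 months and replicate 2 from a Female of 2.5 months. All 4 libraries came from crosses with Ai32, which produces channelrhodopsin fused to EYFP once Cre has acted. Both Cre transgenes follow neuronal genes, no sort for labelled nuclei is recorded, and the number of animals per library is not given in the sources used here, so the p-values measure the spread between 4 libraries. Age differed between the lines, and the iodixanol preparation was used for 1 library only. A further table of vGluT2 neurons held 0 nuclei that met the rule.

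Fibroblasts of the brain sit in the meninges and in the perivascular space around arteries and larger veins. Pial fibroblasts lie on the basement membrane that covers the brain, arachnoid barrier cells form the tight-junction layer between the subarachnoid space and the dura, and dural fibroblasts build the outer collagenous sheet. These cells make fibrillar collagens, laminins, small leucine-rich proteoglycans, retinoic acid and bone morphogenetic proteins, and their solute carriers move organic anions and amino acids between cerebrospinal fluid and tissue. Fibroblasts share much of their matrix programme with mural cells (pericytes and smooth muscle), which lie beside them on vessels.

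The nuclei were rare, at under 1% of every library. They numbered 29 of 4291 nuclei in Ucn3-Cre replicate 1 (0.676%, exact binomial 95% interval 0.453% to 0.969%) and 28 of 6587 in Ucn3-Cre replicate 2 (0.425%, 0.283% to 0.614%). In vGluT2-Cre replicate 1 they numbered 27 of 5642 (0.479%, 0.316% to 0.696%), and in vGluT2-Cre replicate 2 they numbered 33 of 4974 (0.663%, 0.457% to 0.93%). The intervals cover counting error only. The share averaged 0.55% ± 0.177 in Ucn3-Cre and 0.571% ± 0.131 in vGluT2-Cre libraries (SD, n = 2 each), a difference of -0.0205 percentage points with an exact two-sided permutation p of 1, where 2 against 2 libraries cannot give a p below 0.333. Each line held a lower and a higher library, so the lines overlapped. The mural condition removed 12 nuclei that otherwise met the rule.

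**Figure D1:**
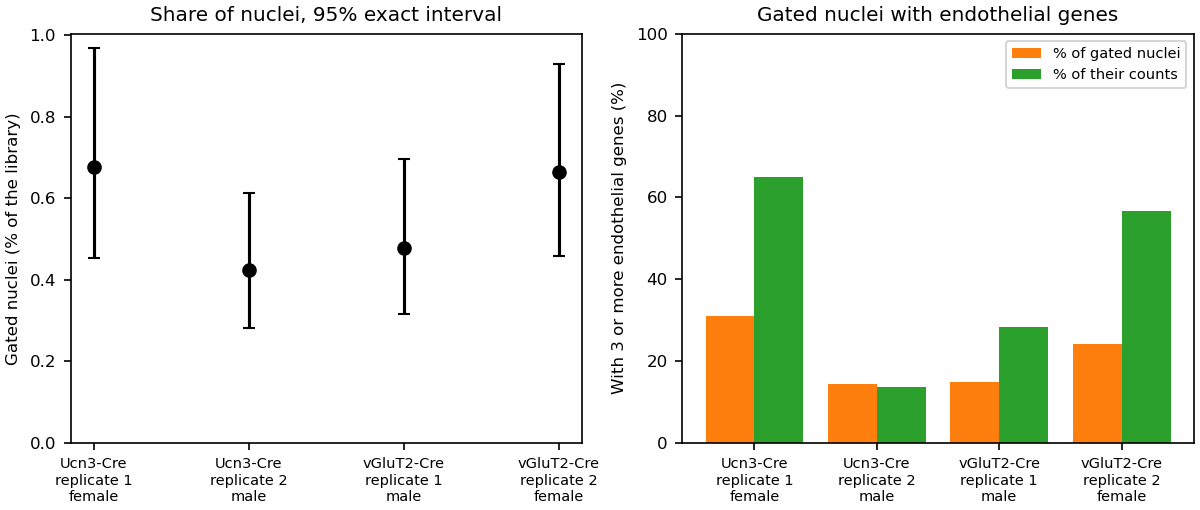
Left, share of nuclei that met the fibroblast and meningeal rule (percent of the library) with exact binomial 95% intervals as bars; right, percent of these nuclei and of their counts that came from nuclei with at least 3 endothelial genes, per library. The 4 shares lie between 0.425% and 0.676% with overlapping intervals, and the share of counts on the right runs from 13.5% to 64.9%.

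Among the gating genes, Dcn (decorin, a collagen-binding proteoglycan) had a count in 105 of the 117 nuclei and Slc6a13 (a GABA and taurine transporter of leptomeningeal cells) in 89. Col1a2 and Col1a1, the chains of type I collagen, had a count in 78 and 76 nuclei, Col3a1 (type III collagen) in 66, Lum (lumican) in 39 and Ranbp3l in 28. The threshold itself held the most nuclei, with 48 carrying 3 gating genes, 31 carrying 4, 19 carrying 5, 15 carrying 6 and 4 carrying all 7. Lum is listed at 0 in every nucleus of Ucn3-Cre replicate 2, so it could select none there. Whole-library zeros of this kind occur for 1806 to 2329 genes per library and for 4186 genes in at least 1 library, and the tables do not say why. For genes named below that have them, the libraries with values are given in place of a mean. As a description of the threshold, the summed level of the 20 genes that were highest in these nuclei had a median of 400 CPM (counts scaled to a total of 1000000) in nuclei with 2 gating genes, of 7181 CPM at 3 and of 12748 CPM at 4 or more. Those 20 genes were picked with nuclei of 2 gating genes among the others, so a step at 3 is favoured by the choice.

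The nuclei were of ordinary depth but included a few very deep ones. Their median count per library was 2023, 1828, 2292 and 3116 in Ucn3-Cre replicates 1 and 2 and vGluT2-Cre replicates 1 and 2, against 1729, 2000, 2337 and 3206 in all other nuclei; library values are given in this order throughout. Their own depth ran over 1004 to 54040 counts, and 5.13% of them had over 10000 counts, against 1.71% of other nuclei. A single nucleus of 54040 counts supplied 30.5% of the summed counts of vGluT2-Cre replicate 2, and another of 32469 counts supplied 29.5% of Ucn3-Cre replicate 1. In Ucn3-Cre replicate 2 a nucleus of 11342 counts supplied 19.3%. That nucleus carried 0 of the endothelial genes used below and was among the highest Scrublet doublet scores. Summed over nuclei, the libraries held 110347, 59727, 77949 and 177181 counts. A single count was therefore worth 9.06, 16.7, 12.8 and 5.64 CPM. Between 3 and 8 barcodes were shared by each pair of libraries.

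Of the 117 nuclei, 25 (21.4%) also carried counts of at least 3 of 7 endothelial genes (Flt1, Cldn5, Pecam1, Slco1a4, Ptprb, Adgrl4 and Cyyr1), and these held 47.6% of all counts. They supplied 64.9%, 13.5%, 28.2% and 56.6% of the counts in the 4 libraries. Of these 25, 23 had a mural gene, against 16 of the other 92, and 81 of the 117 nuclei had no endothelial gene. The summed level of an endothelial marker list was 1021 to 5184 CPM in the 117 nuclei and 71 to 212 CPM in the 92, against 210 to 1115 CPM in all other nuclei and 14207 to 18258 CPM in endothelial nuclei. The summed mural list was 1490 to 4948 CPM in the 117 nuclei and 1099 to 1951 CPM in the 92, against 239 to 418 CPM in all other nuclei and 6958 to 12327 CPM in mural nuclei. Total calls and counts over the role lists, which group genes by function, are given with and without the 25. Many values of single genes are given for all 117 only. The division was made after the values were seen. Low levels in the 92 of the 7 endothelial genes, which are all in the endothelial marker list, follow from the choice itself.

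**Figure D2:**
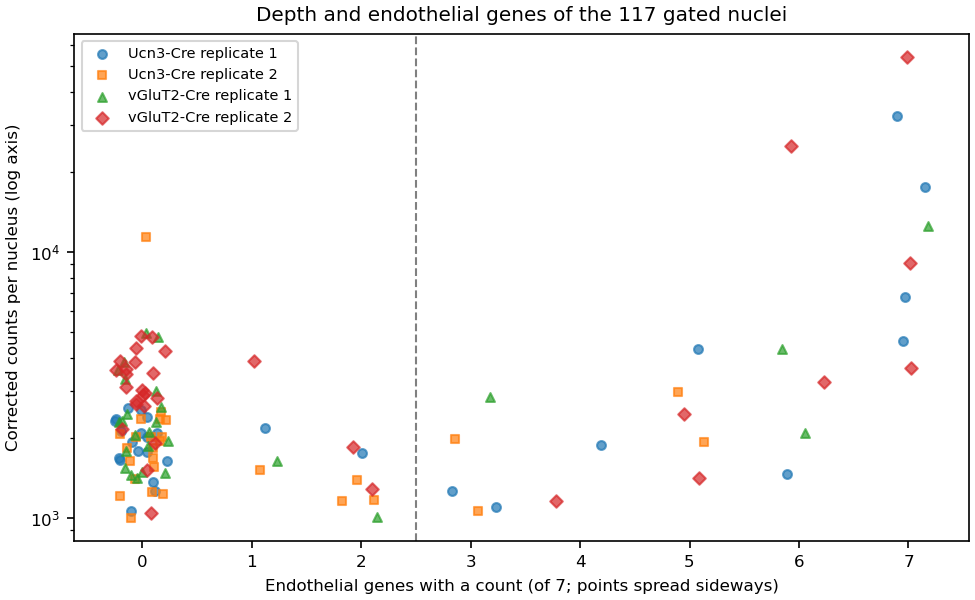
Counts per nucleus (log axis) against the number of 7 endothelial genes with a count, with a point for each of the 117 fibroblast and meningeal nuclei (gated nuclei), colour and marker by library and a dashed line at the division used. The nucleus of 54040 counts carried all 7 endothelial genes, and the 25 nuclei to the right of the line held 47.6% of the counts.

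The label was set beside marker lists without the gating genes. These lists were chosen with earlier results of these data known, so the levels are a description and not an independent check. The summed pial and perivascular fibroblast list (10 genes, among them Lama1, Cemip, Col15a1 and Spp1) was 6470 to 8890 CPM in the 117 nuclei and 8970 to 12501 CPM in the 92. In all other nuclei it was 191 to 404 CPM, with no overlap between libraries. Mural nuclei, the class most like these, had 3492 to 5575 CPM of the same list, and endothelial nuclei 435 to 713 CPM. The arachnoid barrier list gave 335 to 933 CPM in the 117 nuclei and 251 to 390 CPM in the 92, against 461 to 573 CPM in all other nuclei, so that with all 117 the libraries overlapped. In mural and endothelial nuclei the arachnoid list was higher, at 842 to 2189 CPM and 2355 to 2941 CPM. Cdh1, the defining cadherin of that layer, is listed at 0 in every nucleus of 3 libraries and had no count in the 27 nuclei of vGluT2-Cre replicate 1, so its zero says little. The dural list gave 670 to 2592 CPM in the 117 nuclei and 656 to 1041 CPM in the 92, against 201 to 266 CPM in all other nuclei and 1417 to 1757 CPM in mural nuclei. Oligodendrocyte markers summed to 1405 to 4195 CPM in the 117 nuclei, against 9962 to 11596 CPM in all other nuclei, and astrocyte markers to 1558 to 2591 CPM against 2734 to 3549 CPM.

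Clustering of the 117 nuclei, given as a description with no test, gave 5 groups. Group 1 (48 nuclei) had the gating gene Slc6a13 in 95.8% of nuclei and a mean pial list level of 13289 CPM per nucleus, against 6529 CPM in the remaining nuclei. It was led by Rpgrip1, Ikbip, Dync1li1, Fbxw8 and Arhgap24, with 12 to 32 counts each. Group 3 (21 nuclei) had the gating genes Slc6a13 in 100% and Ranbp3l in 47.6% of nuclei, and a pial list level of 12659 CPM. Its leading genes were Fam169b, Hs3st3a1, Alg6, Slc13a3 and Il31ra, with 3 to 7 counts each in 1 to 5 nuclei. Group 2 (38 nuclei) was led by Ly6c1, Nrg3, Ptprb, Adgrl4, Podxl and Acta2, and held 24 of the 25 nuclei with endothelial genes. Its endothelial list level of 4987 CPM was above its pial list level of 4264 CPM, and its mural list level was 4253 CPM. The leading genes of groups 2, 4 and 5 thus went against the label. Group 4 (5 nuclei) was led by Gpc5, Rorb and Slc7a10 with an astrocyte list level of 9047 CPM against 1592 CPM in the remaining nuclei, and group 5 (5 nuclei) was led by Nkain2 and Dcc with an oligodendrocyte list level of 16264 CPM against 2929 CPM.

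Set against all other nuclei, the fibroblast and meningeal nuclei had higher levels of many collagens, laminins and other basement membrane genes, while matrix enzymes were divided. Summed counts per library and class were compared by edgeR's quasi-likelihood test with the library as a block and Benjamini-Hochberg adjustment over 13721 genes, with a threshold of 0.05. At that threshold 1591 genes were higher (11.6%) and 1805 lower (13.2%), 24.8% in either direction. Without the 25 nuclei, 661 of 13540 genes were higher (4.88%) and 1410 lower (10.4%), and without vGluT2-Cre replicate 2 the total of 3396 calls was 2206. Of the higher calls, 588 were shared by both, which is 37% of those with all nuclei and 89% of those without the 25. Since nuclei were chosen on counts of the same libraries, these p-values are too small and the fold changes serve as a description. The median log2 fold change over all genes was -0.15.

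Among genes of at least 50 CPM that were higher in all 4 libraries, the largest fold was that of Col13a1 (ENSMUSG00000058806, GRCm38 chromosome 10, 61838236 to 61979108, minus strand), a transmembrane collagen. Its level was 279, 173, 348 and 223 CPM in the fibroblast and meningeal nuclei, against 1.29, 0.712, 0.185 and 0.918 CPM in all other nuclei, from 32, 12, 30 and 38 counts. The log2 fold change was 8.40 (SE 0.37, edgeR adjusted p = 1.9e-106), and 8.96 without the 25 nuclei. Every library of these nuclei lay above every library of the others.

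Cemip (ENSMUSG00000052353, GRCm38 chromosome 7, 83932857 to 84086502, minus strand) encodes a protein that binds and degrades hyaluronan. It reached 2012, 1789, 1554 and 1633 CPM in these nuclei, against 12.9, 6.21, 5.68 and 6.83 CPM in all other nuclei, a log2 fold change of 7.86 (SE 0.39, adjusted p = 5.0e-88). After each nucleus was thinned to 1000 counts, Cemip had a count in 46.2% of these nuclei, against 1.79% of mural, 1.37% of endothelial and 0.4% of other nuclei. Before thinning these shares were 59%, 3.88%, 1.98% and 1.4%, at median counts per library of 1828 to 3116 in these nuclei, 1440 to 2439 in mural and 1928 to 2250 in endothelial nuclei. The thinned shares for Lama1 were 67.5%, 1.19%, 0.912% and 0.664%, and 74.4%, 3.28%, 1.67% and 2.3% before thinning. Lama1 (ENSMUSG00000032796, GRCm38 chromosome 17, 67697259 to 67822647, plus strand), the laminin alpha1 chain of the pial basement membrane, had 862, 2092, 2249.5 and 1838 CPM, against 15.5, 11.9, 17.6 and 11.7 CPM in all other nuclei (log2 fold change 6.91, SE 0.37). Its lowest library was Ucn3-Cre replicate 1, and the reason was not tested. Without the 25 nuclei Lama1 had 88, 140, 194 and 275 counts of 39533, 51842, 56378 and 77834.

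Tbx18 (ENSMUSG00000032419, GRCm38 chromosome 9, 87702800 to 87731260, minus strand), a T-box transcription factor of vascular and meningeal mesenchyme, was at 209, 245, 510.2 and 282 CPM in these nuclei and at 3.09, 1.62, 0.37 and 1.26 CPM in all other nuclei (log2 fold change 7.74, SE 0.35, adjusted p = 3.8e-103). Col4a6 (ENSMUSG00000031273, GRCm38 chromosome X, 141165403 to 141474076, minus strand), a type IV collagen chain of basement membranes, was at 505, 750.1, 928 and 364 CPM against 3.99, 3.04, 2.35 and 3.79 CPM, with a log2 fold change of 7.53. Col15a1 (ENSMUSG00000028339, GRCm38 chromosome 4, 47208161 to 47313167, plus strand), a collagen that links basement membranes to the matrix beneath, was at 601, 808, 591 and 576 CPM against 5.28, 5.44, 3.46 and 3.62 CPM, with a log2 fold change of 7.19. For these 3 genes too the libraries of the 2 classes did not overlap, and the fold changes without the 25 nuclei were 8.16, 8.10 and 7.62.

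Pi16, a peptidase inhibitor that marks adventitial fibroblasts, averaged 108 ± 22.0 CPM in these nuclei and 0.825 ± 0.222 CPM in all other nuclei (SD, n = 4 libraries each). Adamts12, a secreted metalloprotease, averaged 752 ± 80.7 CPM against 8.44 ± 2.78 CPM, and Lamc3, a laminin gamma chain, 420.4 ± 114 CPM against 6.04 ± 2.13 CPM. Fbln2 (fibulin-2, a basement membrane glycoprotein), Col18a1 (the collagen from which endostatin is cut), Edn3 (the peptide endothelin-3) and Clec3b (tetranectin) had log2 fold changes of 5.90, 5.68, 5.76 and 5.60. Ctgf, a matricellular protein, had 5.87. Nupr1 (a stress-induced chromatin protein), Cped1, Pgpep1l and Pde1a (a calmodulin-dependent phosphodiesterase) had 6.37, 6.27, 5.87 and 5.62. For 2 of the 20 genes with the highest fold the value was far lower without the 25 nuclei. Tagln, a smooth muscle actin-binding protein, had a log2 fold change of 6.39 with all nuclei and 2.78 (adjusted p = 0.0182) without the 25. Gkn3, a gastrokine of mouse arterial endothelium, had 6.37 with all nuclei and 0.94 (adjusted p = 0.863) without them.

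**Figure D3:**
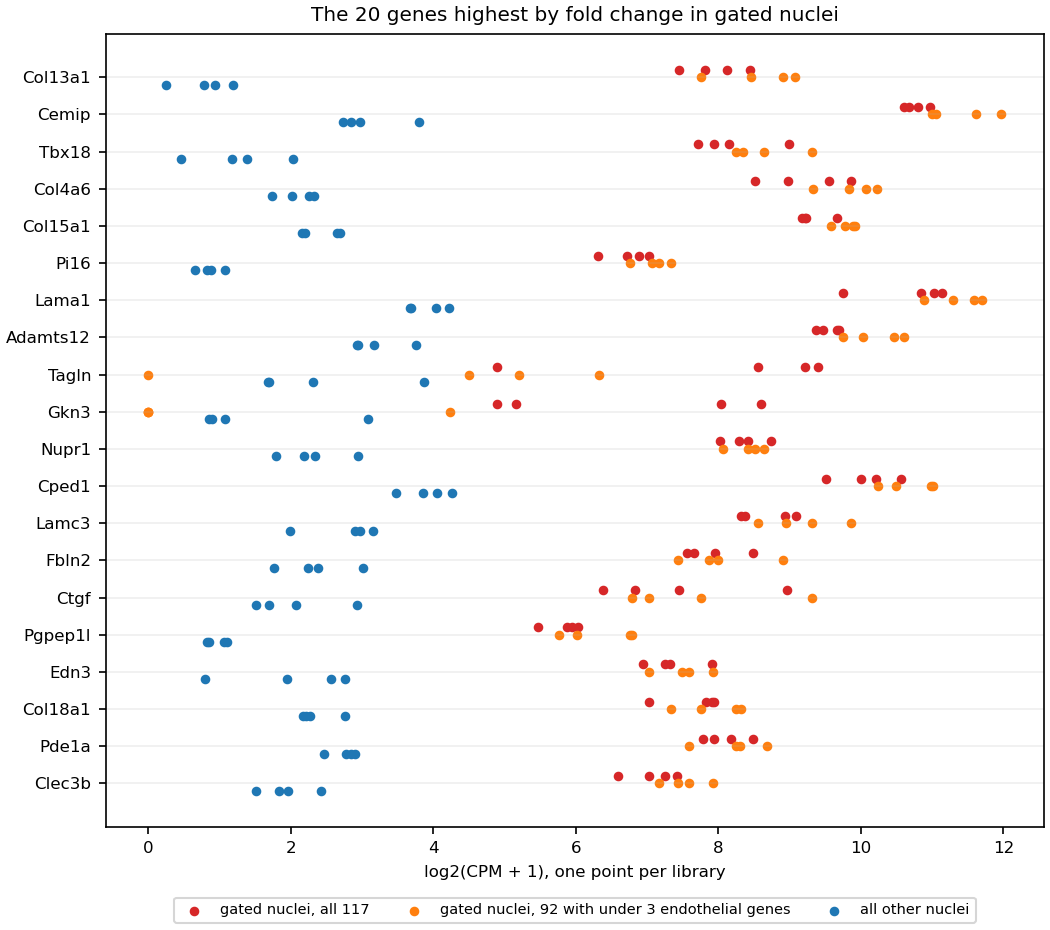
Level as log2(CPM + 1), with a point per library, of the 20 genes with the highest fold, in all 117 fibroblast and meningeal nuclei (gated nuclei), in the 92 of them with under 3 endothelial genes, and in all other nuclei. Col13a1, Cemip and Lama1 stay high in the 92 nuclei, whereas Gkn3 does not.

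Promoter sequences of 15 of these 20 genes were found in the RefSeq table (GRCm38.p6). The 3 printed here belong to a pair of collagen genes and to the transcription factor with the highest fold, and span the 250 bases before the annotated start, 5′ to 3′ on the gene's strand. Capitals mark the TEAD motif GGAATG on either strand.
Col13a1 (chr10:61979109-61979358, minus strand): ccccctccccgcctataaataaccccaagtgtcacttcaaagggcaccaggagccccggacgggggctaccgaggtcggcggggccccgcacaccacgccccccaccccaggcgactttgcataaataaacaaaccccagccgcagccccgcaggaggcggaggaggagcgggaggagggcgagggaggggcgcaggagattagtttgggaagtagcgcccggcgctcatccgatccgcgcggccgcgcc
Tbx18 (chr9:87731261-87731510, minus strand): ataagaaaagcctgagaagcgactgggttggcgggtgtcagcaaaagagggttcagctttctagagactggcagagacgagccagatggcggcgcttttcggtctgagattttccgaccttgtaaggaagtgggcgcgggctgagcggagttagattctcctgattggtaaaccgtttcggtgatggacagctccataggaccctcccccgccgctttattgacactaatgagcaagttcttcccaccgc
Col18a1 (chr10:77113706-77113955, minus strand): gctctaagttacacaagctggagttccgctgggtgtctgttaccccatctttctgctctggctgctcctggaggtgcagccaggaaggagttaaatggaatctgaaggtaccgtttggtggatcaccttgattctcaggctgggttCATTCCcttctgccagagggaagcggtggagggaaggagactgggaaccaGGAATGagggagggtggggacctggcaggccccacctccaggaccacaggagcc
The motif, searched on both strands, lay in 3 of the 19 promoters of these 15 genes (15.8%; 1 of Col18a1 and 2 of Pde1a), against 12.6% of all 32851 promoters of that length. The forkhead motif GTAAACA and the T-box motif AGGTGTGA lay in none of the 19, against 3.17% and 1.12% of all promoters. These are matches of letters within the windows and say nothing of binding.

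In the collagen list, 16 of the 28 genes tested, from 33 listed, were higher and 1 lower, and without the 25 nuclei 15 of 27 were higher and 0 lower. The list's median log2 fold change was 3.03, beside -0.15 over all genes tested. For this and the later role lists, the shares over all genes tested were 11.6% higher and 13.2% lower, and 4.88% and 10.4% without the 25. Beside the collagens named above, the type IV chains Col4a1, Col4a2 and Col4a5 had log2 fold changes of 4.30, 3.55 and 4.86. Col12a1, which binds to collagen fibrils, averaged 219 ± 72.2 CPM against 4.95 ± 0.365 CPM, a log2 fold change of 5.45. Col9a3 was the collagen that was lower, at -2.73 (adjusted p = 0.00655), and it missed the threshold without the 25 nuclei (adjusted p = 0.0524).

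Basement membrane and fibre glycoproteins held the most higher genes of any matrix list: 27 of the 35 genes tested, from 40 listed, were higher and 2 lower, with 23 and 1 without the 25 nuclei. The list median was 3.21. The nidogen Nid1, which joins laminin to type IV collagen, averaged 425 ± 139.7 CPM in these nuclei and 20.0 ± 2.86 CPM in others. Elastin (Eln) had a log2 fold change of 4.40 and the perlecan gene Hspg2 of 3.71. Mfap4, a microfibril-associated glycoprotein, had 13, 0, 0 and 13 counts in the fibroblast and meningeal nuclei, and is listed at 0 in every nucleus of Ucn3-Cre replicate 2 and vGluT2-Cre replicate 1. Emilin1, an elastic fibre protein, had 0, 0, 13 and 10 counts and is listed at 0 in both Ucn3-Cre libraries. Fibronectin (Fn1) was higher with all nuclei (log2 fold change 2.87) and had -0.88 (adjusted p = 0.567) without the 25. Agrn (agrin) had 0.13 with all nuclei and was lower, at -2.20, without them.

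Among proteoglycans and related leucine-rich proteins, 10 of the 14 genes tested, from 20 listed, were higher and 1 lower, with 7 and 1 without the 25 nuclei. Biglycan (Bgn) averaged 455 ± 162 CPM against 10.1 ± 4.59 CPM, a log2 fold change of 5.56 (5.06 without the 25 nuclei), and Prelp, a basement membrane anchor, averaged 273 ± 38.1 CPM against 9.4 ± 2.87 CPM. Islr had 0, 0, 15 and 17 counts and is listed at 0 in both Ucn3-Cre libraries. Osteoglycin (Ogn) had 8, 1, 0 and 11 counts, is listed at 0 in vGluT2-Cre replicate 1, and missed the threshold without the 25 nuclei (adjusted p = 0.0515). Cspg4 (NG2), a proteoglycan of pericytes and oligodendrocyte precursors, was higher with all nuclei at 1.44 and lower without the 25 at -3.36.

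Of the matrix processing enzymes, 13 of the 32 genes tested, from 37 listed, were higher and 7 lower. The collagen chaperone Serpinh1 had a log2 fold change of 3.28, the lysyl oxidase relatives Loxl1 and Loxl2 2.83 and 1.63, and the membrane metalloprotease Mmp14 1.64. Pcolce, which speeds procollagen trimming, had 27, 10, 0 and 34 counts and is listed at 0 in vGluT2-Cre replicate 1. Its relative Pcolce2 went the other way, with 7.97 ± 6.4 CPM in these nuclei and 106 ± 12.9 CPM in others, a log2 fold change of -3.95.

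Receptors for matrix were divided: 10 of the 20 genes tested, from 22 listed, were higher and 4 lower. The discoidin domain collagen receptors moved in opposite directions. Ddr2 averaged 126 ± 37.3 CPM against 11.2 ± 1.18 CPM (log2 fold change 3.48, adjusted p = 6.8e-19), whereas Ddr1 averaged 32.7 ± 8.74 CPM against 281 ± 11.7 CPM (-3.07, adjusted p = 1.8e-13). Integrin alpha8 (Itga8), alpha3 (Itga3), a laminin receptor chain, and alpha11 (Itga11), a collagen receptor chain, had 3.50, 3.38 and 2.90.

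Meningeal fibroblasts are a source of retinoic acid. In the retinoid list, 3 of the 13 genes tested, from 19 listed, were higher and 1 lower, and without the 25 nuclei 4 and 1. Aldh1a2, the enzyme that makes retinoic acid, had 15, 0, 0 and 13 counts, and Cyp1b1, a cytochrome that oxidises retinoids and steroids, had 14, 0, 0 and 21 counts. Both are listed at 0 in Ucn3-Cre replicate 2 and vGluT2-Cre replicate 1, and both passed the test (log2 fold changes 7.49 and 7.37). Cyp26b1, which degrades retinoic acid, was lower, at 0, 14.4, 23.2 and 23.5 CPM against 101, 92.3, 47.3 and 110 CPM (log2 fold change -2.54, adjusted p = 5.9e-06). Rdh10, which oxidises retinol, had 1.16 (adjusted p = 0.0546) and passed without the 25 nuclei (1.72, adjusted p = 0.008).

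Transport genes showed 2 patterns. With all nuclei, 20 of the 42 genes tested, from 50 listed, were higher and 8 lower, and 14 were higher and 12 lower of 42 without the 25. Carriers that were higher either way included Slc6a20a, the imino acid carrier (613 ± 139 CPM against 27.3 ± 8.35 CPM, log2 fold change 4.52), and Slc16a12, a creatine carrier (290.2 ± 131 CPM against 8.31 ± 2.37 CPM, 5.08). Slc7a11, the cystine-glutamate exchanger, had 3.28, the manganese exporter Slc30a10 2.96, and the lipid transporters Abca8a and Abca9 3.38 and 3.32. Slc22a6, the renal and meningeal organic anion carrier OAT1, had 12, 7, 0 and 17 counts, and the sulfate carrier Slc13a4 had 5, 4, 0 and 12 counts, both listed at 0 in vGluT2-Cre replicate 1. Transporters of the blood-brain barrier turned sign: Abcb1a (P-glycoprotein) had 1.92 with all nuclei and -2.95 without the 25, Abcc4 1.49 and -2.55, Slc2a1 (the glucose carrier GLUT1) 1.24 and -1.53, Slco1c1 1.20 and -1.60, and Slco1a4 1.67 and -4.11. These were chosen for naming after their values were seen, and Slco1a4 is among the 7 genes that picked the 25. The endothelial list moved with these transporters, but it holds those 7 genes, so its change follows largely from the choice.

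In the junction list, 6 of the 23 genes tested, from 26 listed, were higher and 8 lower, and 3 and 9 without the 25 nuclei. The list median was -0.18, beside -0.15 over all genes tested. Cldn11, the claudin of the arachnoid barrier and of myelin, was lower at 79.0 ± 50.0 CPM against 400.5 ± 23.4 CPM (log2 fold change -2.51). Cdh5 (VE-cadherin) and the connexin gene Gja4, both vascular genes, were higher at 3.32 and 4.44, and at 2.11 and 2.67 without the 25. Gjb2, a connexin of leptomeninges, had 11, 0, 0 and 0 counts and is listed at 0 in the other 3 libraries. Cldn5, the endothelial claudin, had 2.17 with all nuclei and -3.25 without the 25, which it helped to pick.

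Transcription factors of mesenchyme were mostly higher: 27 of the 34 genes tested, from 52 listed, were higher and 2 lower, and 19 and 3 of 33 without the 25 nuclei. The list median was 2.65. Foxd1, a forkhead factor of stromal progenitors, averaged 135 ± 51.1 CPM against 3.29 ± 1.59 CPM (log2 fold change 5.45), and Foxc1, which is required for meningeal development, had 4.05. The zinc finger genes Zic1, Zic2 and Zic4, which act in cerebellar and meningeal development, had 3.18, 3.56 and 3.32. Nr2f2 (COUP-TFII), a factor of veins and mesenchyme, averaged 345 ± 139 CPM against 21.7 ± 4.71 CPM. Tbx15 had 0, 8, 0 and 10 counts and is listed at 0 in Ucn3-Cre replicate 1 and vGluT2-Cre replicate 1. Heyl, a Notch target, had 105, 28.9, 58.0 and 88.1 CPM against 4.77, 3.69, 2.35 and 4.13 CPM. Mecom, a factor of arterial endothelium, turned sign, at 1.90 with all nuclei and -2.68 without the 25.

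Of the BMP and TGF-beta genes, 18 of the 31 genes tested, from 36 listed, were higher and 2 lower, with 10 and 2 without the 25 nuclei. The ligands led the list. Bmp6 (ENSMUSG00000039004, GRCm38 chromosome 13, 38345107 to 38500302, plus strand) had 740.3, 519, 649 and 881 CPM against 38.0, 35.1, 35.9 and 41.8 CPM in all other nuclei, a log2 fold change of 4.20 (SE 0.30, adjusted p = 4.5e-42), with no overlap between libraries. Bmp4 averaged 84.2 ± 22.9 CPM against 1.84 ± 0.566 CPM and Bmp5 77.8 ± 43.2 CPM against 4.54 ± 1.1 CPM. Bmp7 had 17, 0, 25 and 21 counts and is listed at 0 in Ucn3-Cre replicate 2. The coreceptor Tgfbr3 (betaglycan) had 3.18 and the TGF-beta-induced matrix protein Tgfbi 3.02, whereas the receptor Bmpr1b was lower at -2.90 and the inhibitory Smad7 at -2.07. The endothelial receptors Acvrl1 and Eng passed only with all nuclei, at 2.61 and 3.00 (without the 25, adjusted p = 0.275 and 0.289).

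In the WNT list, 11 of the 18 genes tested, from 31 listed, were higher and 0 lower, with 7 and 0 of 16 without the 25 nuclei. Ror1, a receptor of Wnt5a, averaged 1076 ± 276 CPM against 60.4 ± 21.2 CPM (log2 fold change 4.19), its relative Ror2 had 1.73, and the receptor Fzd6 had 3.04. The ligand Wnt4 had 7, 2, 0 and 9 counts and is listed at 0 in vGluT2-Cre replicate 1, and the receptor Fzd2 had 0, 2, 6 and 6 counts and is listed at 0 in Ucn3-Cre replicate 1. Axin2, a target of beta-catenin signalling, had 2.13.

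Growth factors and their receptors gave 25 higher and 9 lower of 57 tested, and 16 and 11 of 56 without the 25 nuclei. The insulin-like growth factor binding proteins Igfbp2, Igfbp4 and Igfbp5 averaged 338 ± 206, 100.2 ± 34.4 and 305 ± 92.3 CPM in these nuclei, against 16.4 ± 3.35, 3.18 ± 1.03 and 17.4 ± 2.55 CPM in others. Igf2 had 9, 0, 0 and 8 counts and is listed at 0 in Ucn3-Cre replicate 2 and vGluT2-Cre replicate 1. Pdgfra, the receptor that marks fibroblasts and oligodendrocyte precursors, had a log2 fold change of 3.74, and after thinning a count in 53% of these nuclei, against 1.79% of mural, 1.82% of endothelial and 2.97% of other nuclei (before thinning 71.8%, 3.88%, 3.34% and 4.16%). Fgfr1 was higher at 2.04, whereas Fgfr2 and Fgfr3 were lower at -1.42 and -1.25. The guidance receptor Robo2 was higher at 2.48 and Robo1 lower at -1.83.

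Among chemokine, complement and inflammation genes, 17 of the 26 genes tested, from 40 listed, were higher and 3 lower, with 11 and 3 without the 25 nuclei. Serping1, the C1 inhibitor, averaged 178 ± 15.0 CPM against 5.19 ± 1.24 CPM (log2 fold change 5.15). The complement component gene C4b was lower at -1.77. The adhesion molecule Vcam1 and the antiangiogenic protein gene Serpinf1 had 3.91 and 3.45, the chemokine Cxcl12 2.57, and the receptors Osmr and Il1r1 3.42 and 3.27. B2m and H2-D1 of class I antigen presentation passed with all nuclei, at 2.41 and 2.28, and not without the 25 (adjusted p = 0.952 and 0.801).

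In the list of secreted proteins, lipid carriers and prostaglandin enzymes, 12 of the 21 genes tested, from 25 listed, were higher and 2 lower. Without the 25 nuclei 10 were higher and 4 lower of 20 tested. Mgp (matrix Gla protein, an inhibitor of calcification) averaged 776 ± 523 CPM against 22.6 ± 10.4 CPM, a log2 fold change of 5.03, and 3.09 without the 25 nuclei. Ceruloplasmin (Cp), a ferroxidase, had 4.41. Apolipoprotein D (Apod) averaged 4646 ± 931 CPM against 707 ± 110.3 CPM (2.71), and after thinning had a count in 89.7% of these nuclei, against 25.4% of mural, 36.6% of endothelial and 39.8% of other nuclei (before thinning 96.6%, 45.1%, 55.3% and 55.2%). Osteopontin (Spp1) had 2.79 and Ptgds, the prostaglandin D synthase of leptomeninges, 0.84 (adjusted p = 0.0185). These 4 were chosen for naming after their values were seen. Enpp2 (autotaxin), which oligodendrocytes also express, was lower at -2.52. Ptgis (prostacyclin synthase) had 14, 0, 0 and 14 counts and Ptgfr (the prostaglandin F receptor) 8, 0, 0 and 8, and both are listed at 0 in Ucn3-Cre replicate 2 and vGluT2-Cre replicate 1.

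**Figure D4:**
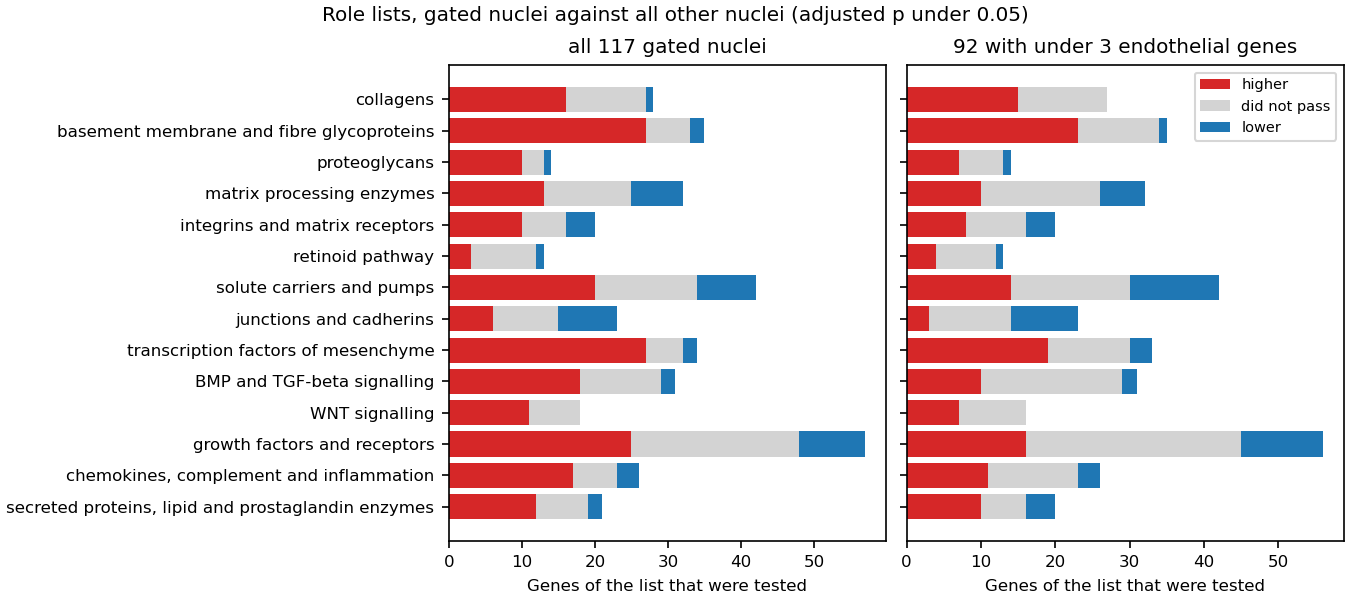
Number of genes tested in each role list that were higher, did not pass or were lower in the fibroblast and meningeal nuclei (gated nuclei) than in all other nuclei, with all 117 nuclei (left) and with the 92 that have under 3 endothelial genes (right). Of the collagens 16 were higher with all nuclei and 15 with the 92, while lower solute carriers numbered 8 and 12.

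Over all 13721 genes tested, 11.6% were higher and 13.2% lower, and without the 25 nuclei 4.88% and 10.4% of 13540. Of the layer lists, 8 of 10 pial and perivascular genes were higher and 0 lower (9 and 0 without the 25 nuclei). Of 7 arachnoid barrier genes tested, 5 were higher and 1 lower with all nuclei, and 1 was higher and 2 lower without the 25. Of 5 dural genes, 5 were higher with all nuclei and 2 (Foxp1 and Mgp) without the 25. Of the endothelial list, 9 of 10 genes were higher with all nuclei, and without the 25, 0 were higher and 6 lower. Only 3 of these 10 genes are not among the 7 that picked the 25, so this change follows largely from the choice. The mural list gave 9 of 10 higher with all nuclei and 5 of 10 without the 25. All 10 oligodendrocyte genes tested were lower with all nuclei, and 7 of 10 astrocyte genes.

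Among genes lower in all 4 libraries, 5 with the lowest fold are given. Nipal4 had 0 counts in these nuclei, which makes it at least 6.86-fold lower than in all other nuclei when 3 counts over the group are taken as the floor. Cntn5, a neuronal adhesion molecule, had 17.4, 0, 0 and 0 CPM in these nuclei, against 322, 288, 453 and 249 CPM in all other nuclei (log2 fold change -6.11). D7Ertd443e, the neuronal transcription factor gene Onecut2 and Tmem132d had -5.77, -5.25 and -5.17.

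Mural nuclei were taken as the 335 remaining nuclei with counts of at least 3 of the 5 mural genes. Against them 7 of the 8 pial and perivascular genes tested were higher and 1 lower (6 and 1 of 7 without the 25 nuclei). Of the mural list 1 of 10 was higher and 4 lower with all nuclei, and 0 of 9 were higher and 9 lower without the 25. Both classes were chosen on mural genes in the same counts, and 23 of the 25 had a mural gene. Lower levels of genes that go with the mural genes thus follow in part from the choice, and p-values of this comparison are too small. By the same edgeR test, 375 of 4992 genes were higher (7.51%) and 349 lower (6.99%), 14.5% in either direction, and 470 in either direction without vGluT2-Cre replicate 2. Without the 25 nuclei 566 of 3503 genes were higher (16.2%) and 796 lower (22.7%). Nuclei with endothelial genes were then left out of the fibroblast and meningeal class only, and 10 of 10 endothelial list genes were lower. That list holds the 7 genes that picked the 25, so this result follows largely from the choice. The largest differences were Lama1, at 1051, 3016, 2967 and 2133 CPM in the fibroblast and meningeal nuclei and 16.0, 35.9, 9.96 and 5.52 CPM in mural nuclei (log2 fold change 6.99, SE 0.43, adjusted p = 6.1e-09), and Cemip (6.85). Col12a1, Adamts12, Col15a1 and Pdgfra followed with 6.33, 6.25, 5.44 and 5.39. Necab1, a calcium-binding protein gene, had 5.58. The glutamate receptor gene Grm8 had 6.02, with 8, 36, 1 and 9 counts, most of them from Ucn3-Cre replicate 2.

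On the lower side, the pericyte ATPase Atp13a5 had 207 ± 167 CPM in the fibroblast and meningeal nuclei and 2521 ± 702 CPM in mural nuclei (log2 fold change -3.65). Grm3, Art3 and Hmcn1 (hemicentin-1, a matrix protein) had -3.68, -3.63 and -3.55. The haemoglobin genes Hba-a1, Hba-a2, Hbb-bs and Hbb-bt had -3.97, -3.42, -3.63 and -3.80. These folds were uneven over libraries: Hbb-bs was at 42.5, 270.4, 184 and 293 CPM in the fibroblast and meningeal nuclei and at 47.9, 5876, 2310.4 and 4182 CPM in mural nuclei, and in Ucn3-Cre replicate 1 Hbb-bt was at 10.6 CPM in both. Hbb-bs had a count in 29.1% of the fibroblast and meningeal nuclei and 32.8% of mural nuclei (17.9% and 20% after thinning). The pairs Hba-a1 with Hba-a2 and Hbb-bs with Hbb-bt are near-identical copies, so how reads were split within a pair is uncertain. Several genes that were far above all other nuclei were not resolved from mural nuclei without the 25: Slc6a20a had -0.28 (adjusted p = 0.391), Slc16a12 0.73 (0.057), Nr2f2 0.33 (0.365), Foxd1 0.60 (0.237), Bgn 0.67 (0.103) and Col4a1 0.22 (0.485). After thinning, Slc6a20a had a count in 41% of the fibroblast and meningeal nuclei and in 57.9% of mural nuclei, against 3.5% of endothelial nuclei (before thinning 65.8%, 77.9% and 5.78%). Vtn (vitronectin), Pdgfrb (the pericyte growth factor receptor) and Ebf1 were lower than in mural nuclei, at -2.22, -1.78 and -2.61.

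Endothelial nuclei were the 658 further nuclei with at least 3 of the 7 endothelial genes. Against them 596 of 5687 genes were higher (10.5%) and 526 lower (9.25%), 19.7% in either direction, and 720 in either direction without vGluT2-Cre replicate 2. Without the 25 nuclei 706 of 4263 genes were higher (16.6%) and 938 lower (22%). Both classes were chosen on the same counts, so p-values of this comparison too are too small. Cemip had 2494, 2443, 1988 and 1911 CPM in the fibroblast and meningeal nuclei and 29.7, 6.13, 14.7 and 5.55 CPM in endothelial nuclei (log2 fold change 7.50, SE 0.43), and Lama1 had a log2 fold change of 7.32. Pgpep1l and Trabd2b (a protease that cleaves WNT proteins) had 0 counts in endothelial nuclei and were at least 34.4-fold and 31.7-fold higher against a floor of 3 counts over the group. Among collagens, Col15a1, Col12a1, Col23a1 and Col4a6 had 6.57, 6.53, 6.33 and 5.96. On the lower side stood Klhl4 (-4.63), Sh3tc2 (-4.57), Hmcn1 (-4.39), Nxpe2 (-4.27), Sorbs2os (-4.20), Hba-a1 (-3.71), Rab11fip1 (-3.70) and Xdh, the xanthine dehydrogenase gene (-3.65).

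The comparisons with mural and with endothelial nuclei share the fibroblast and meningeal nuclei, so their directions are not independent. Of 205 genes of the lists tested in both without the 25 nuclei, 148 passed in both, with 97 higher in both and 49 lower in both. Mural nuclei with endothelial genes stayed in the mural class, so genes lower in both need not be differences from mural cells themselves. Vtn and Pdgfrb were higher than in endothelial nuclei (1.84 and 2.57) and lower than in mural nuclei.

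**Figure D5:**
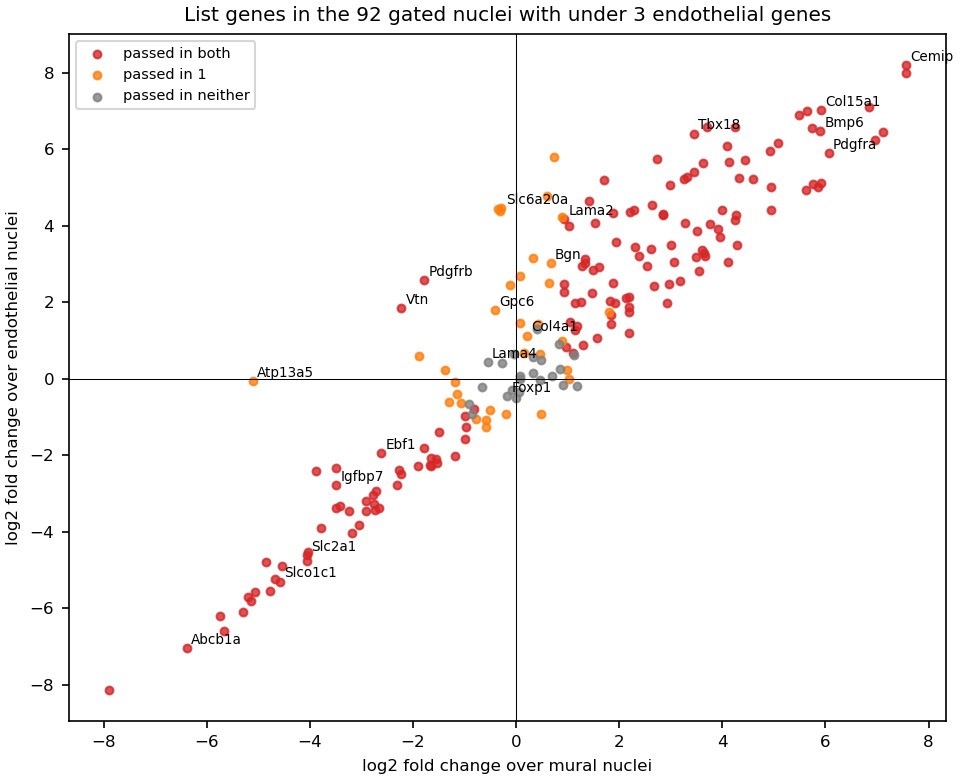
Log2 fold change over endothelial nuclei (vertical) against log2 fold change over mural nuclei (horizontal) for 205 listed genes, in the 92 fibroblast and meningeal nuclei with under 3 endothelial genes, coloured by the tests passed. The 97 genes higher in both lie at the upper right with Cemip and Col15a1, the 49 lower in both lie at the lower left, and Vtn and Pdgfrb lie at the upper left.

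Within the fibroblast and meningeal nuclei, no gene passed the test between the Cre lines. The edgeR test of Ucn3-Cre over vGluT2-Cre, 2 libraries each, called 0 of 2459 genes (0%), with 41 at an unadjusted p under 0.05 (1.67%). DESeq2 also called 0, with 11 at an unadjusted p under 0.05. Without the 25 nuclei, edgeR called 3 of 1048 genes (0.286%), with 48 at an unadjusted p under 0.05 (4.58%). The genes with the smallest p were Xkr4, Dlgap1 and Lrrtm4. Xkr4 was at 250.4 and 381 CPM in Ucn3-Cre and 37.7 and 42.7 CPM in vGluT2-Cre nuclei (log2 fold change 2.86, SE 0.66, adjusted p = 1.00). The synaptic genes Dlgap1 and Lrrtm4 had 2.17 and 3.34, with the same adjusted p, and Lrrtm4 passed without the 25 nuclei (adjusted p = 0.0046). With all nuclei Lrrtm4 was uneven, at 167 and 871 CPM in Ucn3-Cre and 37.7 and 51.2 CPM in vGluT2-Cre nuclei. Leaving out Ucn3-Cre replicate 1 gave 16 calls, vGluT2-Cre replicate 1 gave 2 and vGluT2-Cre replicate 2 gave 3. Age differed with the line, so the effects of line and age cannot be told apart.

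Few genes differed between the sexes, and the one with the smallest p was Xist. Female over Male libraries, 2 each, gave 12 higher (0.488%) and 2 lower (0.0813%) of 2459 genes, 0.569% in either direction, with 335 at an unadjusted p under 0.05 (13.6%). Xist (ENSMUSG00000086503, GRCm38 chromosome X, 103460366 to 103483254, minus strand), the RNA that silences an X chromosome, had 279 and 564 counts in Female nuclei against 0 and 0 in Male nuclei, at least 135-fold higher with 3 counts over the group as the floor. Uty, a gene of the Y chromosome, had 0 and 0 counts in Female nuclei against 8 and 17 in Male nuclei, at least 17.4-fold lower. Adarb2, an RNA-editing enzyme relative, was at least 11.97-fold higher in Female nuclei, and Mecom and Gkn3, both arterial endothelial genes, had log2 fold changes of 3.07 and 3.11 (adjusted p = 0.00909 and 0.0166). The 25 nuclei with endothelial genes held 64.9% and 56.6% of the counts in the Female libraries, against 13.5% and 28.2% in the Male libraries, and without them Xist was the single gene called of 1048 (0.0954%). Of the 14 genes, 11 were not among these 1048, so their calls could not be repeated, and Nrxn3 and Zfp536 missed the threshold (edgeR adjusted p = 0.511 and 0.71). Of the 1048 genes, 48 had an unadjusted p under 0.05 (4.58%). Of the 14 calls, 4 (Xist, Uty, Alpl and Rcn3) are listed at 0 in every nucleus of at least 1 library. Leaving out vGluT2-Cre replicate 1 gave 86 calls, Ucn3-Cre replicate 2 gave 32 and vGluT2-Cre replicate 2 gave 27.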

How the data were processed

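Single-nucleus RNA-seq tables of 4 libraries were used. Per the submitters' processing notes, Cell Ranger 3.1.0 and Seurat 3.2 were used with mm10. The deposited values are estimated counts per gene and nucleus: most lie just below a whole number, and no step that would give such values is stated in the sources used here. A table of vGluT2 neurons served only to exclude nuclei.

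Values were summed over the nuclei of a library and class and rounded, the 12 gating genes were left out (and the 7 endothelial genes in the comparison with endothelial nuclei), and the sums were tested with edgeR 4.0.16 (quasi-likelihood, filterByExpr, TMM scaling, R 4.3.3) with Benjamini-Hochberg adjustment; DESeq2 1.42.0 was an alternative. The tests were first run on simulated counts with a fixed dispersion. That simulation had no selection of nuclei, no very deep nuclei and no whole-library zeros, so it does not cover these features of the data. CPM values are scaled within each comparison by TMM, those of marker lists are plain. Classes were compared with the library as a block, lines and sexes without a replicate block. Nuclei had at least 1000 counts, and summed counts per library ran over 59727 to 177181, where 1 count is worth 5.64 to 16.7 CPM. Doublets were not removed: 8 of the 117 nuclei were among the highest Scrublet scores, and 64 had at least 3 of 9 oligodendrocyte markers (53.6% to 55.6% per library, against 63.6% to 78.4% of other nuclei). Sub-clusters used scanpy 1.11.5 and leidenalg 0.10.2. Alternatives changed the tool, filter, block, gate, depth, doublets, members with endothelial or oligodendrocyte genes, and left out each library.

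Named genes are the 20 highest and 5 lowest against all other nuclei (adjusted p under 0.05, the same direction in every library, at least 50 CPM in the higher class, no gene models without a name), the 8 highest and 8 lowest against mural and endothelial nuclei, the 4 with the largest fold in each role list (at least 20 CPM), and the 5 with the lowest p between sexes and the 3 between lines; others named in the text were chosen after their values were seen, and some genes that the rule names are not reported here. The members and lists were chosen with earlier results of these data known. Positions are from GENCODE M21 (GRCm38).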

Additional observations from a re-analysis of the deposited data

Results flagged for a closer look

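Of 103 named genes checked, 13 had a library whose log2 ratio, computed per library from CPM + 1, stood apart from the other 3. Chance flags about 1 in 20 such groups. All ratios are of the fibroblast and meningeal nuclei over the class named, and no cause was tested.

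Against all other nuclei, vGluT2-Cre replicate 1 stood high for Ctgf, at 7.45 against 4.52 to 4.76 in the other 3 libraries, and for D7Ertd443e, at -3.27 against -7.08 to -6.84. For Onecut2, vGluT2-Cre replicate 2 was at -3.44 against -6.72 to -6.44. Tmem132d was at -3.56 in Ucn3-Cre replicate 1, against -7.87 to -7.44. Heyl was at 2.67 in Ucn3-Cre replicate 2, against 4.12 to 4.19. Pcolce and Slc22a6 were at 0 in vGluT2-Cre replicate 1, against 5.26 to 5.76 and 5.79 to 6.58, and both are listed at 0 in every nucleus of that library. Gjb2 was at 4.76 in Ucn3-Cre replicate 1 and is listed at 0 in every nucleus of the other 3.

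Against mural nuclei, Grm8 was at 7.64 in Ucn3-Cre replicate 2, against 3.77 to 4.05. Against endothelial nuclei, Pgpep1l was at 5.91 in Ucn3-Cre replicate 2, against 6.23 to 6.26, and Sorbs2os at -2.32 in Ucn3-Cre replicate 1, against -6.95 to -6.70. In vGluT2-Cre replicate 2, Col23a1 was at 4.60, against 7.71 to 8.08, and Klhl4 at -3.51, against -6.48 to -6.09.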

How the results depend on the processing

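Against all other nuclei, the 3396 calls became 2071 without the 25 nuclei with endothelial genes, 2094 with the rule applied after thinning, 1660 without members with oligodendrocyte markers and 1774 in sums of thinned nuclei, and the share that was higher became 31.9%, 29.8%, 28.7% and 29%, beside 46.8%. Leaving out a library gave 2206 to 3481 calls. DESeq2's size factors moved the median log2 fold change of all genes by 0.15, to 0. Against mural nuclei, the 724 calls became 1362 without the 25 nuclei and 399 in sums of thinned nuclei, and 470 to 624 without a library. Against endothelial nuclei, the 1122 calls became 1644 and 666, and 720 to 1086 without a library. Sums of thinned nuclei hold fewer counts and fewer testable genes; the other causes were not tested. With no replicate block, these comparisons gave 3320, 509 and 886 calls. Between the lines, 0 calls became 3 without the 25 nuclei, 8 with no filter on low counts and 0 to 16 without a library, where the lone library of a line is assumed to vary like the others. Between the sexes, 14 calls became 1 without the 25 nuclei, 6 by DESeq2, 73 with no filter, 39 with at least 4 gating genes, 2 without the highest Scrublet scores and 20 to 86 without a library. The replicate block gave 0 calls between the lines and 74 between the sexes. Same-numbered libraries deviated oppositely (r = -0.236 over 2518 genes, across genes), so the numbers were not taken as pairs. Libraries of the same number were of opposite sex, so this deviation cannot be told apart from sex. Crossed pairing joined libraries of the same sex, which makes it a block for sex, and gave 0 calls between the lines. The line difference in share turned to 0.105 without Ucn3-Cre replicate 2 and to 0.0719 without vGluT2-Cre replicate 2, within -0.146 to 0.105 over the libraries left out. In the comparison it was picked for, no gene of the naming rule changed sign in any alternative in which it was tested, whereas genes named from the role and marker lists did so against all other nuclei without the 25 nuclei (Abcb1a, Abcc4, Acvrl1, Agrn, Alpl, Atp13a5, Cldn5, Cspg4, Fn1, Mecom, Slc13a3, Slc2a1, Slco1a4 and Slco1c1). Among rule-picked genes against all other nuclei 939 gene-by-setting values kept their call and 20 lost it. Against mural and endothelial nuclei all 211 and 194 kept it. These values cover only genes that were tested in the setting. In sums of thinned nuclei against endothelial nuclei, they cover 6 of the 8 higher and 3 of the 8 lower genes. Comparisons within these nuclei rest on 2 libraries a group and 59727 to 177181 counts per library.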

Other observations

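Transgene and Y-linked transcripts in the fibroblast and meningeal nuclei belong to no comparison above. YFP, listed in the tables for the Ai32 reporter, was counted 5 and 4 times under Ucn3-Cre and 13 and 12 times under vGluT2-Cre, or 45.3, 67, 167 and 67.7 CPM. The Y-linked gene Ddx3y had 4 and 0 counts in the Female libraries, against 4 and 16 in the Male libraries, whereas Eif2s3y and Kdm5d had 0 counts in both Female libraries.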
